A study of Mus musculus with 42 samples.

Results

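The regions described here are stretches of the mouse genome that carried the histone mark H3K27me3 in solvent-treated mesenchymal stem cells and had no call for it after tributyltin. H3K27me3 calls ("islands", continuous stretches in which the chromatin immunoprecipitation exceeded the input) from 8 libraries were merged where they overlapped or touched. A merged autosomal region belonged to the set when at least 3 of the 4 DMSO libraries and 0 of the 4 TBT libraries had an island in it. Of 67899 merged autosomal regions, 781 were selected on these islands, 652 with an island in 3 DMSO libraries and 129 with an island in all 4. The regions were thus chosen by their H3K27me3 islands, and every H3K27me3 value below is a description without a test. The RNA and H3K4me3 libraries took no part in the choice. The labels list 1 input per treatment for both marks, so H3K4me3 islands may share an input with the islands that made the choice.

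The cells were C57BL/6 mouse bone marrow mesenchymal stem cells at passages 9 to 10, bought as cultured cells from a supplier and treated for 48 h. The vehicle was DMSO at 0.1%. TBT is tributyltin at 50 nM, an organotin that activates the retinoid X receptor (RXR) and its partner PPARgamma. 4204 is AGN194204 at 100 nM, a selective RXR agonist, and ROSI is rosiglitazone at 100 nM, a PPARgamma agonist. RNA was sequenced from 6 libraries per treatment, and H3K27me3 and H3K4me3 from 4 libraries each for DMSO and TBT only, with 1 input library per treatment. The labels do not tie the libraries to separate cell isolates, so the p-values below measure the spread between these libraries, which may be technical.

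H3K27me3 is written by Polycomb repressive complex 2, whose catalytic subunit in dividing cells is Ezh2, and is erased by the demethylases Kdm6a and Kdm6b. It is known for broad domains over silent developmental genes, where in stem cells it can lie over the same promoters as H3K4me3, the mark of promoters that are active or held ready. RXR and PPARgamma are nuclear receptors that drive fat cell formation from mesenchymal progenitors.

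Fewer of the regions contained a gene start than in the other classes of H3K27me3 region. Starts were taken from RefSeq promoter entries, which 300 of the 459 genes under the regions had, so all counts of starts are lower limits. In all, 68 regions (8.94% of the 761 on chromosomes with entries) held at least 1. The share was 18.1% of the mirror class, the 1424 regions with an island in at least 3 TBT and 0 DMSO libraries, and 62.4% of the 2859 regions with an island in all 8 libraries. The last class is wider, and per Mb of region there were 12.8 starts in the regions only in DMSO, 28.6 in the mirror class and 30.7 in the regions of all 8 libraries. The promoters inside the regions were also poor in CpG. Of 82 promoters with their start in a region, 11 (13.4%) were CpG-rich, meaning at least 50% GC and an observed-to-expected CpG ratio of at least 0.6 over 300 bases. CpG-rich promoters made up 34.1% of all 31396 autosomal promoters, 35.3% in the mirror class and 35.9% in the regions of all 8 libraries. The median observed-to-expected ratio was 0.275 inside the regions and 0.389 over all promoters.

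The 6 promoters below are shown because they are the listed ones inside a region whose gene passed the RNA test under TBT. They run from 250 bases before the start into the transcript, 5′ to 3′, in the RefSeq GRCm38.p6 annotation, and capitals mark every CG. The first 3 lay under an H3K4me3 island in all 8 libraries.
Adarb1 promoter, chr10:77418224-77418523, minus strand: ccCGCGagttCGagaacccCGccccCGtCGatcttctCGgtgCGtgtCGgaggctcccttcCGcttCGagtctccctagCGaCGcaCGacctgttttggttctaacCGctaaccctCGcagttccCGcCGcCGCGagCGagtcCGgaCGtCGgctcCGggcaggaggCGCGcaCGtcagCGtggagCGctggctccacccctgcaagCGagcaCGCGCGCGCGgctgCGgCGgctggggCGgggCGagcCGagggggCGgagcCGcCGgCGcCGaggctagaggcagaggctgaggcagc
Arhgef3 promoter, chr14:27335787-27336086, plus strand: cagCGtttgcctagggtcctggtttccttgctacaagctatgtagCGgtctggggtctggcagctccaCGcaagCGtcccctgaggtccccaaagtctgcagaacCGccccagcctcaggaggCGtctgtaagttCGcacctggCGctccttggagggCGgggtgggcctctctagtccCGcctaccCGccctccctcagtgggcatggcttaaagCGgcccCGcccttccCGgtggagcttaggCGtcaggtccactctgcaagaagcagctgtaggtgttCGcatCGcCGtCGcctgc
Cryl1 promoter, chr14:57398434-57398733, minus strand: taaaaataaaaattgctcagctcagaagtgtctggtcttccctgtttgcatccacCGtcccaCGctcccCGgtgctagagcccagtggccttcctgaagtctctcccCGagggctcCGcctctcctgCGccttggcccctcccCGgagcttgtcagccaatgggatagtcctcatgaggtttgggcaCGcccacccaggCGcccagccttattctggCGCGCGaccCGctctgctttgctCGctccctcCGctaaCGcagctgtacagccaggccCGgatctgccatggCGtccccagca
The other 3 hold far fewer CG pairs. An H3K4me3 island lay over the Elf1 start in 3 libraries and over the Enpp3 and Otub2 starts in 0.
Elf1 promoter, chr14:79515424-79515723, plus strand: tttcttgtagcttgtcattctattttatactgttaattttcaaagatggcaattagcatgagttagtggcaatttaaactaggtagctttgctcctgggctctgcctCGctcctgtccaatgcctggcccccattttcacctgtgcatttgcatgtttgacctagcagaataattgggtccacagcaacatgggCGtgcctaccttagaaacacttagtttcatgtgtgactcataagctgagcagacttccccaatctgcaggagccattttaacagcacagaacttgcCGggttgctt
Enpp3 promoter, chr10:24836146-24836445, minus strand: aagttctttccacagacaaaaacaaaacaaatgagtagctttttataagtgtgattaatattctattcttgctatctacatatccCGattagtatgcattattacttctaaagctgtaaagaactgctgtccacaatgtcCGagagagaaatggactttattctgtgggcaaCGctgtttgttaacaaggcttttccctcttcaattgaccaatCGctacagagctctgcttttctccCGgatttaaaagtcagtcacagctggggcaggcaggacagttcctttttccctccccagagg
Otub2 promoter, chr12:103376644-103376943, plus strand: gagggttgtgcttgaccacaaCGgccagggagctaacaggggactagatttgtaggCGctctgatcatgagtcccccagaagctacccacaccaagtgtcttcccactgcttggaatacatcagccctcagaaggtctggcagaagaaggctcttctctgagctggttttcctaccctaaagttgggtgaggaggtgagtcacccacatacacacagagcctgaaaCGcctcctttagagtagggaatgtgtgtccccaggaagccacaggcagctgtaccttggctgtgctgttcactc
The Adarb1 promoter has 46 CG pairs, Arhgef3 19 and Cryl1 18, against 5 in Enpp3 and 3 each in Elf1 and Otub2. Arhgef3, Elf1 and Otub2 have further starts outside the regions (4, 2 and 3 listed starts in all), so for these genes only 1 of several promoters lay in a region.

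Short motifs were searched on both strands of the 82 promoters and of all 31396. GGGCGG, a GC box, was in 18.3% of the 82 and 36% of all. CACGTG, an E-box, was in 0 of the 82 and 7.14% of all. TATAAA was in 13.4% and 13.6%. AGGTCA, the core element of RXR and its partners, was in 26.8% of the 82 (22 promoters) and 16.3% of all. The DR1 repeat, which holds AGGTCA 2 times with 1 base between the copies, was in 0 of the 82 and 0.0382% of all. With 12 matches in all 31396 promoters, it is too rare for the 0 to say anything about the regions. A match describes letters in the window and nothing about binding. One microRNA of the RefSeq table lay in a region. Its mature sequence is shown with the seed, bases 2 to 8, in capitals, and its locus is in chr10:60910801-60930600.
miR-6408: cACAUGGGcuugcaugggaugguc

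The H3K27me3 signal in the regions was low, as it was in the other classes, and the regions were narrower than those of all 8 libraries. Their median width was 7400 bp (range 400 to 41200), against 30600 bp for regions of all 8 libraries, and together they covered 6.6 Mb. A library with an island covered on average 61.2% of a region (median over the regions). Fold over input was taken per region and library from the deposited ChIP and input reads of its islands, on the scale of the authors' own fold per island. Its median per region was 1.42, against 1.41 in the mirror class and 1.44 in the regions of all 8 libraries, and single values ranged from 1.09 to 3.6. By library the median fold at the regions was 1.34 in DMSO 1 (619 regions with an island), 1.42 in DMSO 2 (566), 1.44 in DMSO 3 (643) and 1.47 in DMSO 4 (644). The DMSO 2 library, with the fewest islands, was the one missing in 215 of the 652 regions found in 3 libraries, against 162 for DMSO 1, 138 for DMSO 3 and 137 for DMSO 4. The caller's FDR was above 1e-04 for 30.7% of the islands in the regions, against 4.46% in the regions of all 8 libraries.

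**Figure D1:**
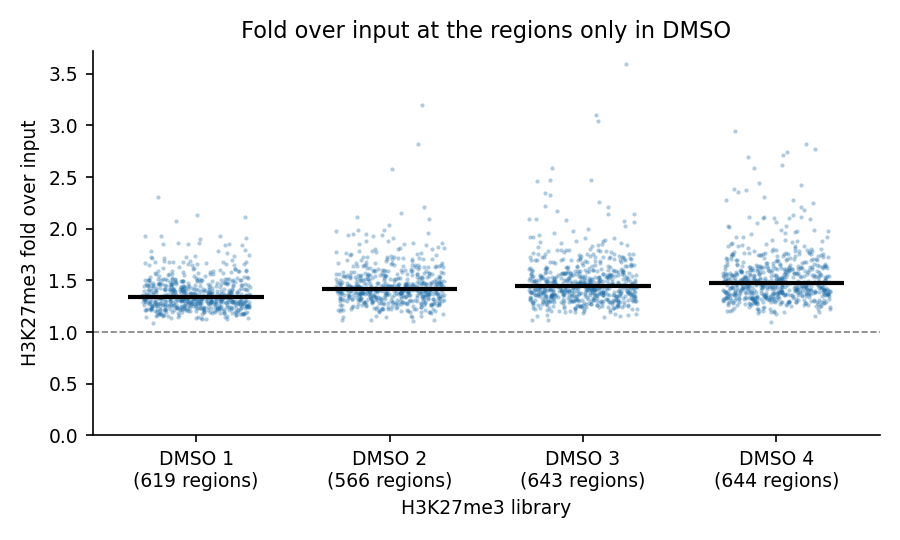
H3K27me3 fold over input of the islands in the 781 regions, 1 point per region with an island in that library (ChIP over scaled input reads), by DMSO library on the x axis; black bars are medians and the dashed line is a fold of 1. The medians lie between 1.34 and 1.47, and the TBT libraries have no points because the rule allows no island there.

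The rule sits on a slope rather than at a gap. Just outside it, 2945 regions had an island in 2 DMSO and 0 TBT libraries, with a median fold of 1.44. Another 539 had an island in 3 DMSO libraries and 1 TBT library, and 128 in 4 DMSO libraries and 1 TBT library, with median folds of 1.408 and 1.401. The regions just inside, with 3 DMSO libraries and 0 TBT libraries, had a median fold of 1.42. The TBT libraries had 21377 to 33531 autosomal islands each and the DMSO libraries 16808 to 26497. The part of the number of islands per library in the selection was not tested.

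A region with a TBT island was often close by. It lay within 2000 bp of 181 regions and within 10000 bp of 473 (60.6%), and of the mirror class 64.8% lay as close to a region with a DMSO island. Regions of all 8 libraries were distant, at a median of 355600 bp. Each treatment had 1 input library. Within the islands of the regions the DMSO input had a median of 41.5 reads per kb, against 46.4 to 47.6 in islands of the regions of all 8 libraries. In the mirror class the TBT input had 44.6 to 45.6 reads per kb, against 48.4 to 49.1. The input was thus lower at both kinds of region called in 1 treatment, and its part in the calls was not tested.

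The authors' deposited table of differential H3K27me3, with 4329 entries, listed 379 of the 781 regions, and all 379 were higher in DMSO there. It rests on the same libraries and is no separate evidence. In the authors' deposited table the log2 concentration of these 379 regions had a median of 5.87 in DMSO and 0.66 in TBT, and 165 of them had the lowest TBT value listed for them, -0.22. Among these regions the largest difference in the authors' deposited table was 7.83 on the log2 scale, at chr17:9887001-9908200 over a predicted gene. Further large ones were chr6:24701601-24721600 between genes (7.33) and chr8:77149401-77165200 in Nr3c2 (6.87), the mineralocorticoid receptor gene. Each of these had the shared lowest TBT value of -0.22. The sizes of these differences thus rest on that value and are not on the scale of the fold over input.

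By fold over input the first was chr10:37819601-37821600, an intergenic region with 2.13 in DMSO 1, 3.1 in DMSO 3 and 2.62 in DMSO 4. Next came chr19:9162601-9167400, also outside genes, with 1.798, 2.579, 2.476 and 2.351 in DMSO 1 to 4. Among the 10 regions of highest median fold (1.97 to 2.62), 3 overlapped a gene: Adh4 (an alcohol dehydrogenase), Olfr687 (an olfactory receptor) and Gria2 (an AMPA glutamate receptor subunit). The 5 widest regions spanned 28600 to 41200 bp with median folds of 1.14 to 1.56. The widest, chr3:31601601-31642800, had an island in all 4 DMSO libraries and no gene. Its islands covered 27.9% of it on average per library, and 2045 of its 2428 ChIP reads were in DMSO 2, at a fold of 1.147. One of the 5, chr6:38902801-38942800, held the start of Tbxas1 (thromboxane synthase).

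The regions were unevenly spread over the chromosomes. Chromosome 19 held 63 of them (8.07%), while it held 3.86% of the mirror class and 4.27% of the regions of all 8 libraries. Chromosome 15 held 68 (8.71%, against 6.88% and 5.11%) and chromosome 10 held 64 (8.19%, against 7.58% and 4.76%). Chromosomes 4 and 11 went the other way, with 1.92% and 3.58% of the regions. The mirror class had 3.51% and 7.16% there, and the regions of all 8 libraries 5.84% and 8.53%. Shares were not set against chromosome length. The DMSO input density over islands of the regions of all 8 libraries was taken relative to the median chromosome. It was 1.1 on chromosome 19, 1.21 on 15, 1.07 on 10, 0.936 on 4 and 0.984 on 11. The highest was 1.5 on chromosome 17, which held 5.76% of the regions. The TBT input density, taken the same way, was 1.13 on chromosome 19, 1.245 on 15 and 1.11 on 10. It was 0.972 on chromosome 4, 0.985 on 11 and 1.51 on 17. The part of the input in the spread was not tested. The densest 5-Mb window, chr19:20000001-25000000, held 12 regions. At least 1 region lay in 338 windows of this size. The median distance from a region to the next was 735800 bp, and 116 lay within 100000 bp of another.

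**Figure D2:**
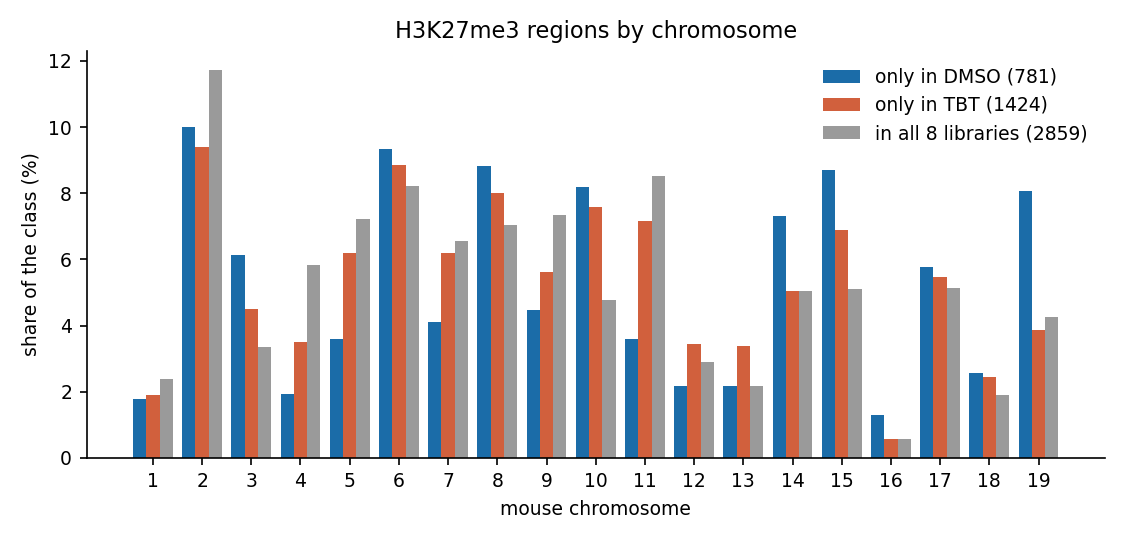
Share of each class of H3K27me3 region (y axis, percent of the class) by autosome (x axis), for the regions only in DMSO, those only in TBT and those in all 8 libraries. Chromosome 19 holds 8.07% of the regions only in DMSO against 3.86% and 4.27% of the other classes; counts of regions have no error bars.

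The genes under the regions were long. A gene span overlapped 414 regions (53.0%), and a protein-coding one 294. The 459 genes included 278 protein-coding genes, 117 long noncoding RNAs and 41 pseudogenes. The median span of the protein-coding ones was 109292 bp, against 17491 bp for all autosomal protein-coding genes, and a longer gene offers more room for an overlap. No exon annotation was used, so regions are placed by gene span and start only.

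Several genes held more than 1 region, 22 in all. Trpm3, a cation channel gene of 857614 bp on chromosome 19, held 5 between chr19:22310401-22318600 and chr19:22862601-22871400, and accounts for 5 of the 12 in the densest window. Hpse2, a heparanase-related gene also on chromosome 19, held 5 between 42917001 and 43067400. Nr3c2 held 3, all with fold values of 1.24 to 1.64. Dlg2, a postsynaptic scaffold gene of 1973059 bp, Clmn and Tmem232 held 3 each. Hpse2 had 0 counts in all 24 RNA libraries. Nr3c2 and Trpm3 were low, with medians in DMSO of 0.687 and 1.31 CPM (counts scaled to a fixed library total), and neither they nor Tmem232 passed the filter on low counts. These genes were named for their number of regions.

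Among the gene lists used for this series, the neuronal and ion channel families had the most genes under the regions. They were 12 of 369 (3.25%), against 1.35% of all protein-coding genes: Cacng1, Cntn3, Cntn5, Cntnap2, Gabrg3, Gria2, Grid1, Kcnb2, Kcnq5, Sema4d, Sema5a and Syt1. Many of these genes are long, for example Cntnap2 at 2241333 bp and Cntn5 at 1270553 bp. Syt1, a synaptic vesicle calcium sensor, was the only one of the 12 with a listed start in a region. Developmental transcription factor families, the usual content of Polycomb domains, had 2 of 220 genes under the regions (Meis2 and Sox5), and gene-cluster families such as olfactory receptors 9 of 2314. None of 20 adipogenic regulators, 9 blood cell markers or 9 mature adipocyte markers was under a region. Osteoblast and chondrocyte regulators had 1 of 20 (Sox5), mesenchymal stromal markers 1 of 16 (Itgb1, the beta-1 integrin subunit), endothelial markers 1 of 6 (Flt1) and signalling families 2 of 118 (Fgf14 and Notch3).

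Ezh2 itself was under a region. It was the only one of 29 autosomal Polycomb and H3K27 demethylase genes that was. The region, chr6:47529601-47542000, covered the 3′ end of Ezh2 (chr6:47530274-47595270, minus strand) and lay 53030 bp from its start. All 4 DMSO libraries had an island there, with folds over input of 1.405, 1.404, 1.797 and 1.223 in DMSO 1 to 4. The authors' deposited table gave a log2 concentration of 5.86 in DMSO and -0.22 in TBT, the lowest TBT value listed for the regions.

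RNA was compared to ask whether genes under the regions changed under a treatment that left no island there. Of 16 mesenchymal stromal markers 15 passed the filter on low counts, with a summed level of 5775 to 6160 CPM in DMSO. Of 9 mature adipocyte markers 3 passed, all 3 higher under each of the treatments, and the list summed to 37.2 to 50.2 CPM in DMSO, 329 to 374 in TBT, 265 to 339 in 4204 and 98.4 to 111.6 in ROSI, with Lep at 0 in all libraries. Its part in the changes below was not tested. Of 9 blood cell markers 2 passed, and Adgre1 and Kit were among those with 0 counts. Of 343 genes matched to the RNA table, 126 passed the filter on low counts (36.7%), against 27.6% of all 45317 genes of the table. Of the protein-coding ones 45.3% passed, against 55.5% of all autosomal protein-coding genes, while 52 of 274 had 0 counts in all 24 libraries, against 4020 of 18957. Total gene counts were 3801758 to 5347365 per library. Of 12529 genes tested, 28.9% passed the threshold under TBT (edgeR quasi-likelihood, Benjamini-Hochberg adjusted p of at most 0.05), 15% higher and 13.9% lower. Of the 126 genes, 20 were higher (15.9%) and 23 lower (18.3%). The median log2 fold change was -0.01 for the 126 and -0.01 for all genes tested. Genes under the regions thus moved in both directions at shares near those of all genes, and with TMM scaling there was no common rise. Library scaling by the ERCC spike-ins gave 18 higher and 1 lower, with 14.4% higher and 2.34% lower over all genes, whose median moved from -0.01 to 0.08. The libraries of both groups stood fully apart for 14 of the 126: all 6 TBT libraries were above all 6 DMSO libraries for 10 (6.73% of all genes tested) and below for 4 (4.98%).

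Over all genes tested the shares under TBT were 15% higher and 13.9% lower. For the 12 tested genes with a listed start in a region, 5 were higher (41.7%) and 1 lower (8.33%), with no set test. The risers were Adarb1 (an RNA editing enzyme), Arhgef3 (an exchange factor for RhoA), Cryl1 (a sugar dehydrogenase), Elf1 (an ETS transcription factor) and Otub2 (a deubiquitinase). Arhgef3 CPM was 12.5 to 24.6 in DMSO (median 17.9) and 20.4 to 29.5 in TBT (median 25.2), an overlap of both groups. Its log2 fold change was 0.50 ± 0.12 (SE, n = 6 per group, adjusted p = 0.00183, edgeR). Elf1 CPM was 97.9 to 109.5 in DMSO (median 105.0) and 113.7 to 136.7 in TBT (median 122.6), so every TBT library was above every DMSO library. Its log2 fold change was 0.26 ± 0.06 (adjusted p = 0.000531).
Otub2 CPM went from a median of 12.4 (9.36 to 14.4) to 15.5 (14.7 to 18.9) without overlap, a log2 fold change of 0.40 ± 0.12 (adjusted p = 0.0132). Cryl1 had medians of 3.98 and 6.84 CPM and a log2 fold change of 0.67 ± 0.19 (adjusted p = 0.00749). The Adarb1 change was 0.22 ± 0.08 (adjusted p = 0.044), and it lost the call when any of 9 single libraries was left out, with DESeq2, and with spike-in scaling. Enpp3, an ectonucleotide phosphodiesterase, fell from a median of 3.33 CPM (2.35 to 4.29) to 1.73 (1.13 to 3.01). Its log2 fold change was -0.83 ± 0.27 (adjusted p = 0.0206), and the call was lost without DMSO replicate 4 (-0.75) or 6 (-0.75) and without TBT replicate 2 (-0.69) or 4 (-0.74), or without the filter on low counts (-0.82). Ccdc84, Clmn, Fut4, Magi1, Tmem14a and Tspan2 did not pass, with log2 fold changes from -0.44 to 0.17.

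**Figure D3:**
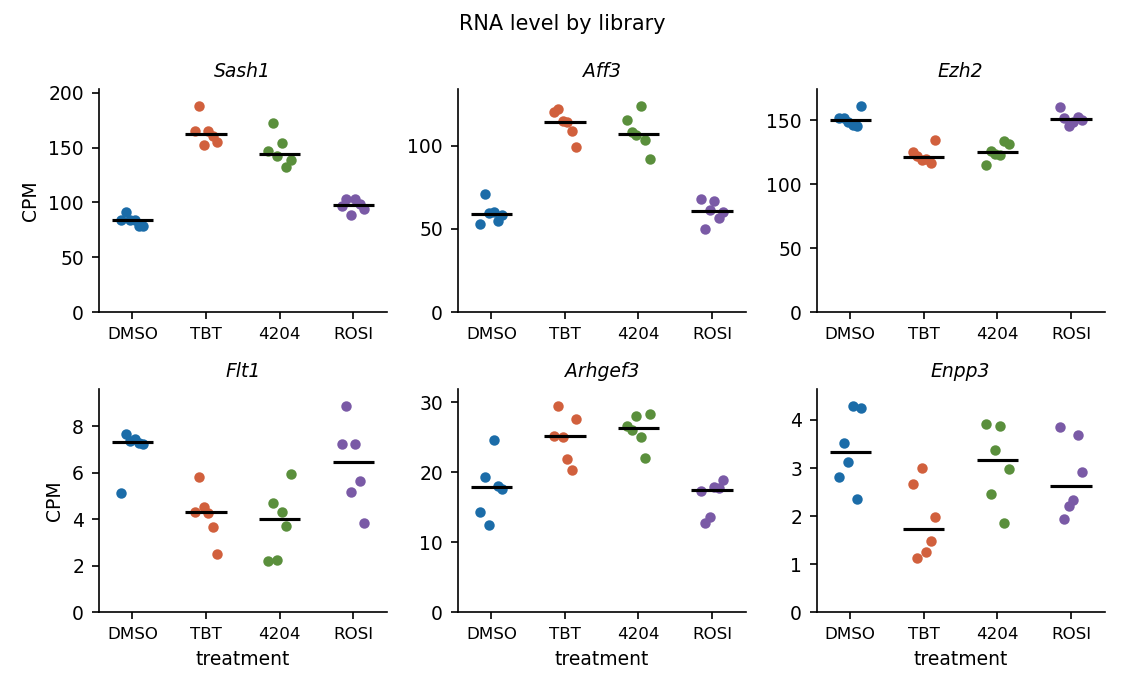
RNA level (y axis, CPM, from 0) of 6 genes at the regions by treatment (x axis); each point is 1 of 6 libraries and black bars are medians. Sash1 and Aff3 lie higher in TBT and 4204, Ezh2 lies lower in both, and the DMSO and TBT points of Flt1, Arhgef3 and Enpp3 overlap.

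The 2 largest rises under TBT were in genes whose region lay inside the span and away from the listed start. Sash1, a scaffold protein gene on the minus strand, had the region chr10:8918001-8925200, 31931 bp from its 1 listed start. That start is not the 5′ end of the gene span (8945608), which lies nearer to the region. Its CPM was 78.1 to 91.2 in DMSO (median 83.9) and 152.1 to 188.5 in TBT (median 162.7), with no overlap. The log2 fold change was 0.98 ± 0.06 (n = 6 per group, adjusted p = 1.33e-16, edgeR). Aff3, a nuclear factor of the AF4 family, rose from a median of 58.9 CPM (53.1 to 71.0) to 114.7 (99.6 to 122.3), a log2 fold change of 0.93 ± 0.07 (adjusted p = 2.69e-13). In both genes each TBT library was above each DMSO library.
Fhod3 (an actin-assembling formin) rose by 0.56 ± 0.05 on the log2 scale, Psd3 (an exchange factor for Arf6) by 0.63 ± 0.08 and Pde3a (a cAMP phosphodiesterase) by 0.58 ± 0.10. Their groups did not overlap. Fbxl7, a subunit of SCF ubiquitin ligases with 2 regions, rose by 0.82 ± 0.20 with no overlap, at medians of 6.68 and 9.80 CPM. Tmcc3, an endoplasmic reticulum membrane protein gene, rose by 0.45 ± 0.11. Dlg2, with 3 regions, had a log2 fold change of 0.84 ± 0.31 at medians of 2.08 and 3.25 CPM. Its adjusted p was 0.0346, and the call was lost without DMSO replicate 3 (0.79) or 5 (0.66) and without TBT replicate 1 (0.80) or 4 (0.65), or without the filter on low counts (0.84).

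Of the 10 largest falls, 7 were in genes with a DMSO median under 10 CPM. Cyfip2 (a subunit of the actin-regulating WAVE complex) had medians of 2.07 and 0.501 CPM in DMSO and TBT and a log2 fold change of -1.32 ± 0.45 (adjusted p = 0.0234). Its call was lost without DMSO replicate 6 (-1.19) and without TBT replicate 1 (-1.18) or 5 (-1.08). Flt1, a VEGF receptor gene and an endothelial marker, fell from a median of 7.33 CPM (5.15 to 7.65) to 4.29 (2.49 to 5.83), a log2 fold change of -0.73 ± 0.22 (adjusted p = 0.0113). The summed CPM of 6 endothelial markers, Flt1 included, was 10.1 to 16.2 in DMSO and 6.05 to 8.46 in TBT, 2 of the 6 passed the filter and none was at 0 in all libraries; the part of these cells in the Flt1 fall was not tested. In bulk RNA, fewer cells of a type and less RNA per cell cannot be told apart.
Nlrc3, a dampener of innate immune signalling, fell by 0.73 ± 0.22 on the log2 scale with no overlap (3.0 to 7.0 CPM in TBT, 7.6 to 10.0 in DMSO). Sybu, a kinesin adaptor with 2 regions, fell by 0.84 ± 0.26 and Sh3rf3, a ubiquitin ligase, by 0.69 ± 0.21. Kcnq5, a potassium channel, fell by 0.66 ± 0.25, Ranbp3l, a nuclear export factor, by 0.34 ± 0.13 and Dph5, a diphthamide synthesis enzyme, by 0.31 ± 0.11. The calls of Kcnq5, Ranbp3l and Dph5 were lost when any of 9, 8 or 4 single libraries was left out, and those of Kcnq5 and Dph5 also without the filter on low counts (-0.66 and -0.31). Of the 10 largest falls, Enpp3 included, Sybu alone kept its call with spike-in scaling (adjusted p = 0.0458).

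Ezh2 RNA fell. Its CPM was 145.9 to 161.6 in DMSO (median 150.1) and 116.3 to 134.6 in TBT (median 121.0), and every TBT library was below every DMSO library. The log2 fold change was -0.30 ± 0.04 (n = 6 per group, adjusted p = 5.03e-07, edgeR), and -0.21 with an adjusted p of 0.0506 under spike-in scaling. The demethylase gene Kdm6b, not under a region, rose by 0.44 ± 0.06 (adjusted p = 1.79e-07), from a median of 119.9 to 160.8 CPM with no overlap. Kdm6a was at -0.06 ± 0.08 (adjusted p = 0.607). Of 30 tested Polycomb and demethylase genes, 7 rose and 8 fell under TBT, beside 15% and 13.9% of all genes tested. This list was not tested as a set or counted under spike-in scaling.

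Of the other listed genes under the regions, Meis2, a homeobox gene, rose by 0.17 ± 0.04 (adjusted p = 0.00147) and Sema5a, a guidance factor, by 0.21 ± 0.06 (adjusted p = 0.00417; 0.30 with an adjusted p of 0.0519 under spike-in scaling). Itgb1, the most abundant of them at a DMSO median of 604.0 CPM, was at -0.03 ± 0.04 (adjusted p = 0.588). Sox5 was at 0.08 ± 0.11, Notch3 at 0.09 ± 0.15 and Gria2 at -0.32 ± 0.30, none past the threshold. Syt1, Cntn3, Cntn5, Gabrg3 and Kcnb2 had no counts in any of the 24 libraries.

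The RXR agonist 4204 was compared with the same DMSO libraries, so its values stand beside those of TBT and share their controls. Over all genes tested 24.1% passed, 12.8% higher and 11.3% lower. Of the 126 genes, 14 were higher (11.1%) and 9 lower (7.14%), with a median log2 fold change of -0.02. All 6 libraries lay above all DMSO libraries for 6 genes (6.9% of all genes tested) and below for 3 (4.68%). Sash1 was at 0.83 ± 0.06, Aff3 at 0.86 ± 0.07, Fhod3 at 0.74 ± 0.05, Fbxl7 at 0.82 ± 0.20 and Dlg2 at 0.86 ± 0.31. The last of these had an adjusted p of 0.0364 and lost the call when any of 7 single libraries was left out. Falls included Flt1 (-0.85 ± 0.23), Sh3rf3 (-0.82 ± 0.21), Msra, a methionine sulfoxide reductase (-0.36 ± 0.12) and Ezh2 (-0.27 ± 0.04). Ezh2 CPM was 115.3 to 134.2 in 4204, below every DMSO library. The 6 endothelial markers, Flt1 included, summed to 5.63 to 8.48 CPM in 4204, and their part in the Flt1 fall was not tested. Msra had an adjusted p of 0.0258 and lost the call without DMSO replicate 4 (-0.31) or 6 (-0.34) and without 4204 replicate 1 (-0.29). The Dlg2 and Msra calls under 4204 were also lost with spike-in scaling (0.87 and -0.35) and without the filter on low counts (0.86 and -0.36). Genes called under TBT but not under 4204 included Psd3 (0.17 ± 0.09 under 4204), Pde3a (-0.02 ± 0.11) and Nlrc3 (-0.20 ± 0.21); the differences between the treatments were not tested.

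Rosiglitazone was compared with the same DMSO libraries. It moved few genes, with 1.04% of all genes tested past the threshold, 0.615% higher and 0.423% lower. None of the 126 genes passed with edgeR, 13 had an unadjusted p under 0.05 (1413 of the 12529 genes tested), and DESeq2 called 1, Sash1. For 0 of the 126 did all 6 libraries lie above all DMSO libraries (0.838% of all genes tested) or below them (0.678%). Sash1 CPM was 89.0 to 103.6 under rosiglitazone (median 97.6), overlapping DMSO, with a log2 fold change of 0.23 ± 0.06 (adjusted p = 0.0598, edgeR). Ezh2 was at 0.00 ± 0.04 (adjusted p = 0.987).

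**Figure D4:**
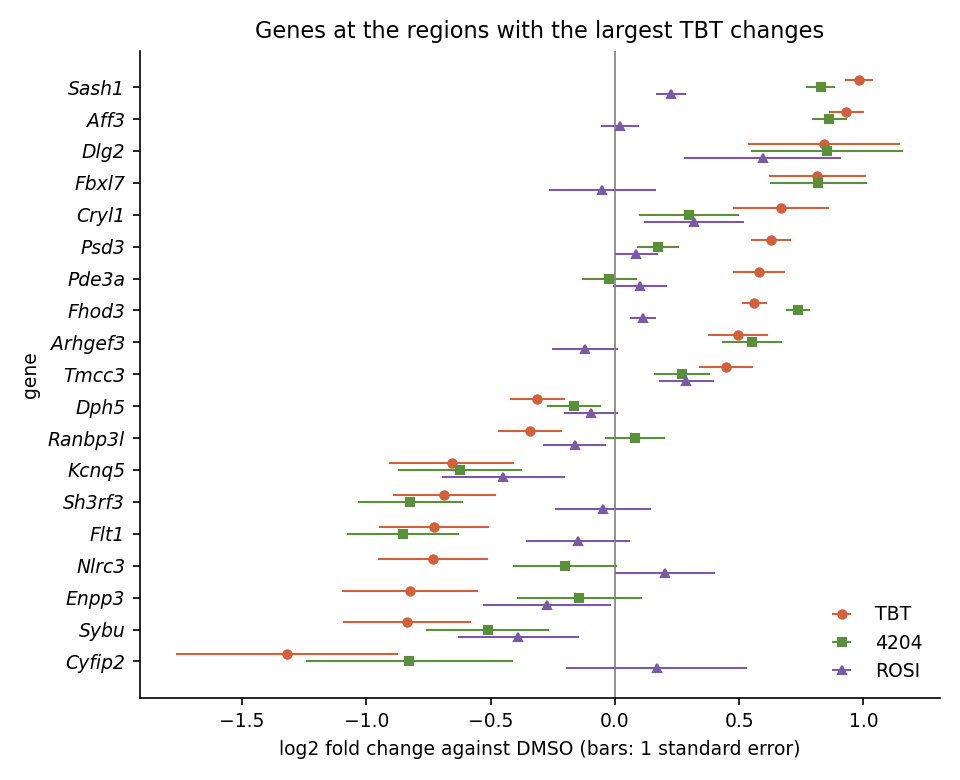
Log2 fold change against DMSO (x axis, bars of 1 standard error) of the 10 largest rises and 9 of the 10 largest falls past the threshold under TBT among genes at the regions (y axis), with the same genes under 4204 and ROSI; n = 6 libraries per treatment, and all 3 treatments share the DMSO libraries. Sash1 and Aff3 reach 0.98 and 0.93 under TBT and 0.83 and 0.86 under 4204, and no ROSI value passed the threshold.

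H3K4me3 was measured in libraries that the rule did not use. By the labels its islands and those of the rule had the same 1 input per treatment, so they are not fully separate. H3K4me3 islands lay in a larger share of the regions in the DMSO libraries than in the TBT libraries. The share of the 781 regions with an H3K4me3 island was 11.5%, 12.8%, 17.5% and 7.43% in DMSO 1 to 4, and 5.38%, 6.4%, 5.12% and 6.79% in TBT 1 to 4. Every DMSO library was above every TBT library. In the mirror class the DMSO libraries had 14.5% to 17.4% and the TBT libraries 17.3% to 20.1%, which overlapped, and in the regions of all 8 libraries both groups lay between 55.5% and 62.2%. DMSO 3 had the most autosomal H3K4me3 islands (23964, against 18193 to 21456 in the other libraries) and the lowest median fold over input (2.83).

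These H3K4me3 islands were mostly weak and found in 1 library. An island was present in DMSO libraries only at 172 regions, in TBT libraries only at 32, in both at 62 and in neither at 515. Without DMSO replicate 3 the numbers were 114, 42, 52 and 573. Of the 172, 136 had it in 1 library. The median fold over input of H3K4me3 islands at the regions was 1.81 to 2.46 in the DMSO libraries, against 2.83 to 5.81 for all their islands. The labels list 1 input per treatment for both marks, yet at identical islands the H3K27me3 data list more input reads than the H3K4me3 data, by a median ratio of 3.6 in DMSO (235 islands) and 2.79 in TBT (246). The part of the input in the difference between treatments was not tested.

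**Figure D5:**
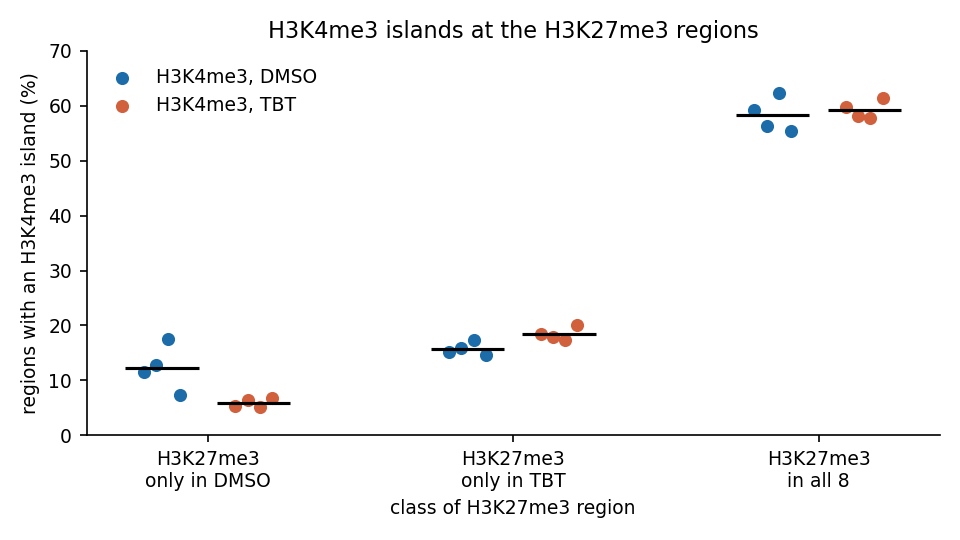
Share of H3K27me3 regions that overlap an H3K4me3 island (y axis, percent) for 3 classes of region (x axis); each point is 1 H3K4me3 library, 4 per treatment, and black bars are means. At the regions only in DMSO the DMSO points (7.43% to 17.5%) lie above the TBT points (5.12% to 6.79%).

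Read counts could be tested at 33 of the 781 regions, with no H3K4me3 call there. The test covered 12333 merged H3K4me3 regions with an island in all 8 libraries, and 16 of them passed (0.13%). This choice leaves out the 172 regions with H3K4me3 islands in DMSO libraries only. Of the H3K4me3 regions tested, 35 overlapped 33 of the 781 regions only in DMSO. None of the 35 passed with edgeR or DESeq2, 4 had an unadjusted p under 0.05 with edgeR (8.24% over all H3K4me3 regions tested), and log2 fold changes ran from -0.44 to 0.43 with a median near 0. The smallest adjusted p was 0.317 (log2 fold change 0.27 ± 0.08), at chr7:100490001-100500400. It overlapped the edge of the region chr7:100484401-100490200, which lies over Ucp3, a mitochondrial carrier gene. Ucp2 has its listed start outside the regions but within 5000 bp of one, and the H3K4me3 was not assigned to either gene. At the Adarb1 start the H3K4me3 CPM was 124.7, 138.1, 125.5 and 116.0 in DMSO 1 to 4 and 124.2, 139.1, 121.2 and 134.9 in TBT 1 to 4. The log2 fold change there was 0.04 ± 0.06 (adjusted p = 0.914, edgeR). At Arhgef3 it was 0.36 ± 0.20 (adjusted p = 0.693), and at the region over Elf1 -0.37 ± 0.38 (adjusted p = 0.85). Over the end of the Pde3a span with the lower coordinate (141249269), which lies in the region chr6:141248401-141258800, it was 0.14 ± 0.05 (adjusted p = 0.486). For these genes no change of H3K4me3 was called. At Arhgef3 and Elf1 the standard errors of 0.20 and 0.38 are too wide to tell no change from one as large as in RNA. The authors' deposited H3K4me3 table overlapped 3 of the 781 regions, each higher in DMSO there. How many of all its entries were higher in DMSO was not counted, so the 3 have no share beside them. One of the 3 was chr17:9887001-9908200, with log2 concentrations of 4.49 in DMSO and -0.33 in TBT.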

How the data were processed

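RNA was sequenced in 24 libraries (ERCC spike-ins added) and H3K27me3 and H3K4me3 in 8 libraries each, with 2 inputs. The submitters' processing notes name STAR, SAMtools, DESeq2, SICER and DiffBind, and the builds GRCm38 and mm10; versions are not given in the sources used here. The deposited RNA table holds read counts per gene symbol made by the authors; rows for reads without a gene (20.9% to 24.3% of a library) were left out of library sizes. The strand setting of the counting is not stated, so antisense and overlapping genes are uncertain. The authors called islands per library against an input, using 200 bp windows, gaps up to 600 bp and a false discovery rate of 0.001, per the file names. Each deposited island lists ChIP and input read counts, a p-value, a fold over input (a ratio) and an FDR. The authors' deposited tables of differential peaks give log2 concentrations, a log2 fold and p-values; a deposited log2 expression table of the same 24 libraries was not used.

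Fold over input per region was recomputed from the deposited island reads. Islands were merged where they overlapped or touched, and coordinates are 1-based. Genes and promoters came from RefSeq GRCm38.p6: 343 of the 459 genes under the regions matched the RNA table, 10 through a synonym, and 300 had a promoter entry. The promoter table has no entry on chromosome 18. RNA counts were tested with edgeR 4.0.16 (R 4.3.3; TMM, filterByExpr, quasi-likelihood, treatment as the only term, all 24 libraries in 1 fit), with Benjamini-Hochberg adjustment over all genes tested; DESeq2 1.42.0 was an alternative. SE is the log2 fold change over the square root of F. H3K4me3 reads of the islands in regions found in all 8 libraries were tested the same way; island widths differ between libraries. Both scripts were run on simulated counts with the spread of the RNA. For H3K4me3 that spread was not fitted to the data, and a filter on low counts was used that the test itself lacks.

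Named genes were up to 10 rises and 10 falls under TBT and up to 5 each under 4204 and ROSI by size among calls, plus Ezh2, Kdm6a and Kdm6b; named regions were the 10 of highest fold, the 5 widest and those with a gene start. Genes with at least 3 regions, with a start in a region or on a list were added after their values were seen. The regions, lists and tests were chosen with earlier results of these data known. Base sequences at the centres of regions, and some genes, are not reported here.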

Additional observations from a re-analysis of the deposited data

Results flagged for a closer look

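Among the named genes and island shares, 81 groups of 4 or 6 libraries were searched for a library far from its group, and 4 were found, about the 1 in 20 that chance gives. The highest TBT library for Sash1 (replicate 2) was at 188.5 CPM, above a group median of 162.7. The highest DMSO library for Sybu (replicate 4) was at 5.88 CPM against a median of 3.95. The lowest DMSO library for Flt1 (replicate 1) was at 5.15 CPM against 7.33. The highest TBT library for Otub2 (replicate 4) was at 18.9 CPM against 15.5. All 4 genes kept their calls under TBT when any single library was left out.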

How the results depend on the processing

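The number of regions depended strongly on the rule. It was 129 with an island in all 4 DMSO libraries and 3726 with an island in at least 2. With islands of FDR at most 1e-05 it was 317 (135 of the 781 were found again). It was 401 when islands had to cover 50% of a region (260 of the 781 were found again). When gaps of 1000 bp were merged it was 706 (655 of the 781 were found again). Leaving out 1 DMSO library and asking for an island in 2 of the 3 left, which changes the libraries and loosens the rule together, gave 2078 to 2475. Leaving out 1 TBT library gave 907 to 1075. The 43 genes called under TBT became 19 with spike-in scaling, 12 when genes were assigned by a start within 5000 bp, and 7 for regions in all 4 DMSO libraries; the 23 under 4204 became 9, 6 and 5. The causes of the spike-in values were not tested. The other 2 settings draw on fewer tested genes, 29 by start and 19 for regions in all 4 DMSO libraries, against 126. Leaving out 1 library gave 35 to 41 under TBT and 21 to 25 under 4204. Under ROSI the 0 became 1 without the filter, with DESeq2 and with the 12 libraries compared alone, each time Sash1, and 0 to 1 without single libraries. With the replicate block the counts were 43, 24 and 1. H3K4me3 calls stayed at 0 in every setting run, the block and single-library omissions (0 to 0) included. Same-numbered RNA libraries correlated at -0.05 to 0.12 and H3K4me3 ones at 0.00 to 0.09, so the numbers do not pair libraries; 6 of 24 RNA libraries matched their own number best. The count of regions with H3K4me3 in DMSO libraries only was 114 without DMSO replicate 3, a setting chosen after seeing the data.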

Other observations

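On the sex chromosomes, outside the rule, 14 merged regions of X and 1 of Y had an island in at least 3 DMSO and 0 TBT libraries, against 22 and 1 in the mirror class.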
